A study of Danio rerio with 12 samples.

Results

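10 genes of iron uptake, export, storage and regulation were followed by RNA sequencing in whole zebrafish given one of a pair of microRNAs. They were chosen by symbol: ireb2, aco1, tfa, tfr1a, tfr1b, slc11a2, slc40a1, fthl27, fthl28 and hamp each matched 1 identifier, so that they made up 10 of the 32105 genes in the count table. All 10 passed the filter on low counts that left 20872 genes for testing. All animals were wild type and 2 days old. Synthetic miR-29a (2 ng) was given to the miR-29a group, synthetic miR-101a (2 ng) to the miR-101a group, and the control group had no perturbation, with 4 libraries in each group. A mock-treated group and the route of delivery are not named in the labels, and the delivered RNAs themselves were not measured. Separate clutches are not stated for the replicates either, so p-values reflect only how far these libraries differ, which can be technical.

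Iron circulates bound to transferrin, enters cells through the transferrin receptor and leaves the endosome through the metal transporter DMT1. Ferritin stores the iron that is not used, ferroportin exports it, and hepcidin, a hormone of the liver, causes ferroportin to be degraded. Inside cells the iron regulatory proteins bind iron response elements in messenger RNAs when iron is scarce, which blocks translation of ferritin and stabilises transferrin receptor messages. In the young zebrafish embryo the yolk syncytial layer supplies nutrients, and the growing red cells are the main consumers of iron. A microRNA guides Argonaute proteins to messenger RNAs and lowers their level or translation, and ireb2 has been reported as a target of miR-29.

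Total counts ran from 19804199 to 30383374 per library. One library, miR-29a replicate 3, stood apart from the rest: its scaling factor was 0.729, against 0.963 to 1.11 in the others, and leaving it out lowered the biological coefficient of variation over all genes to 7.72%, against 21.7% with it. In that library short genes were high and long genes low relative to the other miR-29a libraries, with a median log2 ratio of 0.83 in the shortest bin (1 of 10 by length) with a median length of 786 bases and -0.63 in the longest bin, at 6877 bases. The results of the 10 iron genes are therefore given with and without it. Markers of red cells, liver and yolk syncytial layer, macrophages, intestine and skin were all detected, and no identifier of these lists was at 0 in all libraries, but the hepatocyte gene fabp10a did not exceed 0.491 CPM (counts scaled to a common library total) in any library.

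Against control, 6 of the 10 iron genes changed with miR-29a, 3 higher and 3 lower, at a Benjamini-Hochberg adjusted p under 0.05 in edgeR's quasi-likelihood test. Among all genes tested 29.0% were called, 17.1% higher and 11.9% lower. The ferritin genes fthl27 and fthl28 and the transporter slc11a2 rose, and the receptors tfr1a and tfr1b and the exporter slc40a1 fell. Without miR-29a replicate 3, 8 were called, 4 higher and 4 lower, and the share over all genes was 52.6% (25.8% higher and 26.8% lower). With miR-101a 3 changed: fthl28 and slc40a1 rose and tfa fell, against 18.7% of all genes called (11.7% higher and 6.97% lower). Without miR-29a replicate 3, which also enters the shared estimate of the spread, 6 were called in this comparison, 3 higher and 3 lower, against 47.8% of all genes (23.7% higher and 24.2% lower). Both comparisons use the same 4 control libraries. Between the microRNAs 6 differed, 4 higher and 2 lower with miR-29a, against 17.9% of all genes (8.64% and 9.23%); without the replicate 9 differed, 5 higher and 4 lower, against 43.4% (21.3% and 22.1%). The median log2 fold change of the 10 genes was 0.29 for miR-29a against control, -0.02 for miR-101a against control and 0.57 between the microRNAs, and over all genes it was 0.03, 0.02 and 0.02. Without the replicate the medians of the 10 were -0.19, -0.04 and 0.07. The libraries of both groups did not overlap for 6 of the 10 in miR-29a against control (33.5% of all genes), 5 in miR-101a against control (43.8%) and 7 between the microRNAs (23.6%), and without the replicate for 9 (56.1%), 5 (43.8%) and 9 (45.1%).

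**Figure D1:**
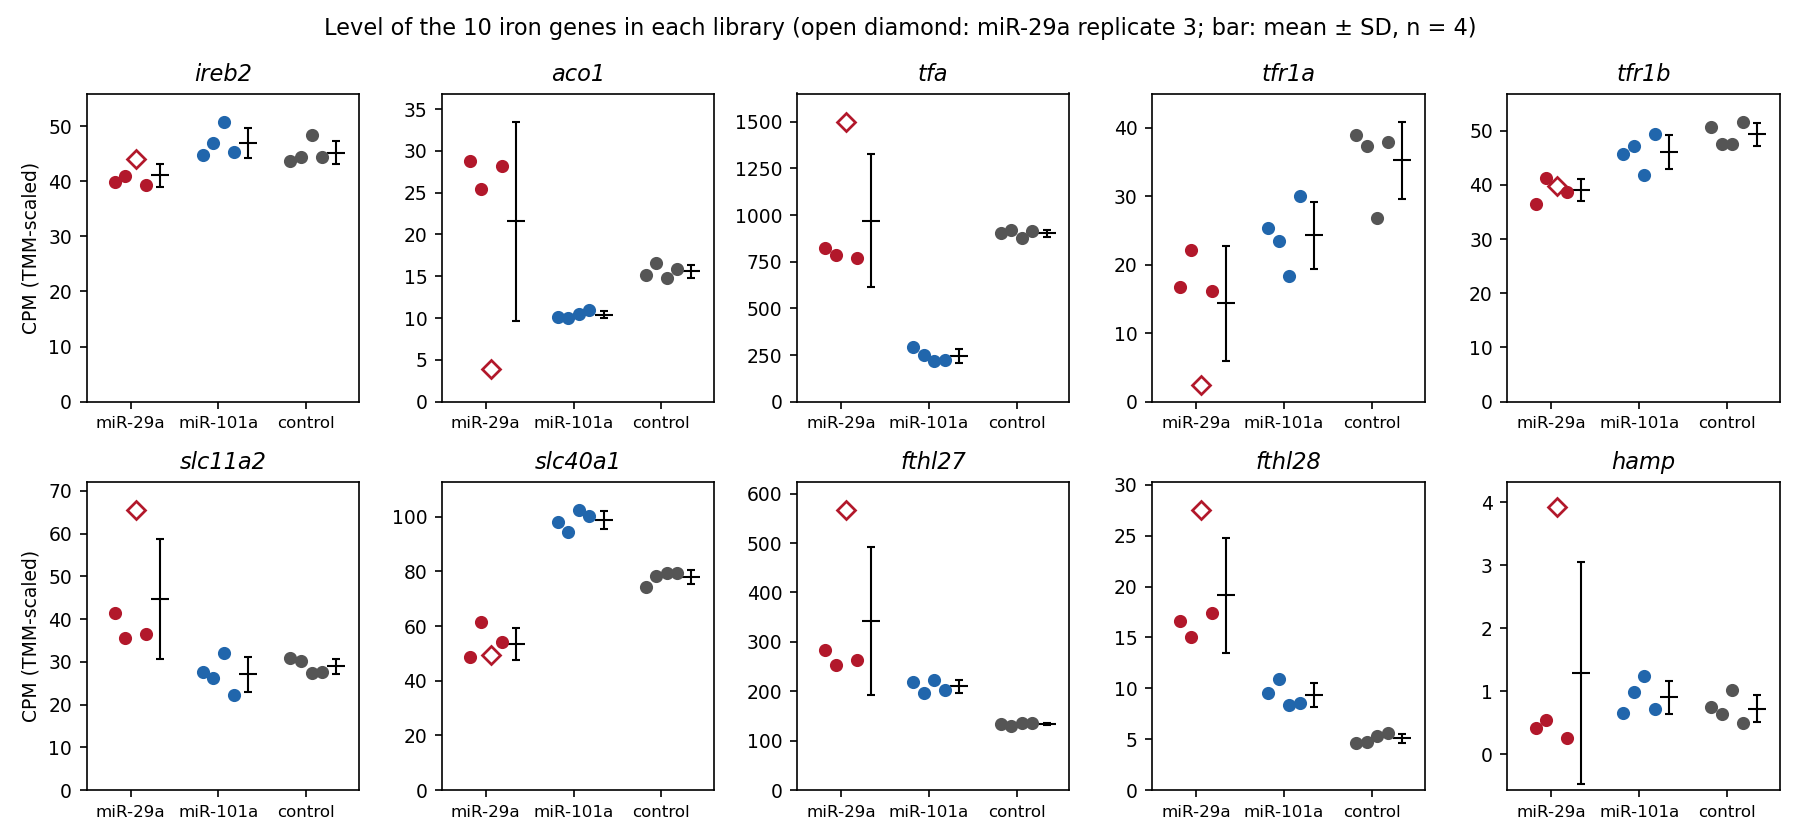
CPM after TMM scaling (vertical axes, linear) of the 10 iron genes in the 12 libraries, by group. Points are libraries, the open diamond is miR-29a replicate 3, and bars are the mean ± SD (n = 4). That library is low for aco1 (3.88) and tfr1a (2.38) and high for tfa (1502), fthl27 (567) and hamp (3.93), and the 3 groups of slc40a1 do not overlap.

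Levels per gene length placed hepcidin last in all 3 groups and transferrin first with miR-29a and in control. The mean of tfa was 395.9 ± 145.0 RPKM (the same scale divided by gene length, computed here from the counts; SD, n = 4 here and below) with miR-29a, 100.4 ± 14.7 with miR-101a and 369 ± 7.76 in control. That of fthl27 was 229 ± 100.7, 141 ± 8.74 and 89.6 ± 1.57 in the same order of groups, which put it above tfa in the miR-101a fish and below it in the other groups. In control fish slc40a1 (20.6 ± 0.639) and slc11a2 (17.4 ± 1.06) came next. Then came tfr1a (12.1 ± 1.94), ireb2 (11.9 ± 0.558) and tfr1b (11.7 ± 0.510), whose means differed by less than their spread, and fthl28 (5.72 ± 0.502) and aco1 (5.46 ± 0.283), of which the same holds. The mean of hamp was 0.622 ± 0.187 RPKM in control.

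Of the genes for the iron regulatory proteins, ireb2 (ENSDARG00000021466, named IREB2 in the symbol table), which encodes IRP2, showed small differences. It had 39.9, 40.9, 44.1 and 39.3 CPM in miR-29a replicates 1 to 4, 44.8, 46.9, 50.9 and 45.3 with miR-101a and 43.7, 44.4, 48.4 and 44.5 in control. The miR-29a libraries lay low but overlapped with control through replicate 3, and every one lay below every miR-101a library. In every group replicate 3 was the highest. The log2 fold change against control was -0.14 ± 0.07 (± SE; adjusted p = 0.171) with all libraries. It was -0.18 ± 0.06 (adjusted p = 0.0152) without miR-29a replicate 3, where the groups did not overlap. That fit kept the high replicate 3 of control. With all libraries and the replicate number as a block, the change was -0.14 ± 0.06 (adjusted p = 0.126) and was not called. With miR-101a it was 0.05 ± 0.07 (adjusted p = 0.691), and 0.03 ± 0.05 (adjusted p = 0.620) without miR-29a replicate 3. Between the microRNAs the difference was -0.19 ± 0.07 (adjusted p = 0.0843), and -0.21 ± 0.06 (adjusted p = 0.00635) without replicate 3.

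The other regulator, aco1 (ENSDARG00000026376), encodes IRP1, which is a cytosolic aconitase when it holds an iron-sulfur cluster. It had 28.8, 25.5, 3.88 and 28.2 CPM with miR-29a, 10.2, 9.96, 10.5 and 10.9 with miR-101a and 15.1, 16.6, 14.8 and 15.9 in control. 3 of the miR-29a libraries lay above all others and replicate 3, with 75 counts, below all others, while all miR-101a libraries lay below control. No comparison passed the test with all 12 libraries: the log2 fold change was 0.47 ± 0.42 (adjusted p = 0.444) for miR-29a, -0.59 ± 0.42 (adjusted p = 0.409) for miR-101a and 1.06 ± 0.42 (adjusted p = 0.112) between them. Without replicate 3 all of them did, at 0.82 ± 0.07 (adjusted p = 2.76e-08), -0.60 ± 0.07 (adjusted p = 1.59e-06) and 1.42 ± 0.07 (adjusted p = 4.33e-10). The miR-101a call thus turned on the shared estimate of the spread, and with only the 8 miR-101a and control libraries the difference was -0.58 (adjusted p = 8.27e-06).

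Transferrin, tfa (ENSDARG00000016771), the iron carrier of plasma, was 3.67-fold lower with miR-101a than in control. It had 825, 784, 1502 and 769 CPM with miR-29a, 295, 249.8, 217 and 222 with miR-101a and 901, 921, 878 and 913 in control. Every miR-101a library lay below every other library, and replicate 3 of miR-29a above every other. The log2 fold change was -1.88 ± 0.21 (adjusted p = 1.23e-04) for miR-101a against control, or -1.90 ± 0.08 (adjusted p = 6.53e-11) without miR-29a replicate 3. It was 1.98 ± 0.21 (adjusted p = 1.47e-04) for miR-29a against miR-101a, which was 1.70 ± 0.08 (adjusted p = 2.44e-09) without replicate 3. For miR-29a against control it was 0.10 ± 0.20 (adjusted p = 0.751), and without replicate 3 -0.19 ± 0.08 (adjusted p = 0.0631). Summed CPM of 20 other genes of the liver and yolk syncytial layer was 17074 to 20705 with miR-29a (32758 in replicate 3), 11286 to 12491.5 with miR-101a and 14866.5 to 16466.5 in control. Of the 17 tested, 7 were higher and 2 lower with miR-29a against control (median log2 fold change 0.52), against 17.1% and 11.9% of all genes. With miR-101a 0 were higher and 4 lower (median -0.31), against 11.7% and 6.97%. Without miR-29a replicate 3 these counts were 11 and 5 (median 0.26), against 25.8% and 26.8% of all genes, and 0 and 10 (median -0.33), against 23.7% and 24.2%. In whole animals fewer cells of a type and less RNA per cell cannot be told apart, and the part of these cells in the tfa result was not tested.

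The zebrafish has a pair of transferrin receptor genes, of which tfr1a is known for supplying iron to developing red cells and tfr1b is expressed more widely. The values of tfr1a (ENSDARG00000101322) were 16.7, 22.2, 2.38 and 16.2 CPM with miR-29a, 25.4, 23.5, 18.3 and 30.0 with miR-101a and 38.9, 37.4, 26.8 and 37.9 in control. All miR-29a libraries lay below all control libraries, while miR-101a overlapped with both, and replicate 3 was the lowest of its group in all 3 groups. With miR-29a tfr1a fell by 1.29 ± 0.45 on the log2 scale against control (adjusted p = 0.04998), and by 0.94 ± 0.19 (adjusted p = 0.00201) without replicate 3. The first call sat at the threshold. It was lost under median-ratio scaling (adjusted p = 0.0520) and with only the 8 libraries of the comparison (adjusted p = 0.134). Leaving out any 1 library other than miR-29a replicates 2 and 3 lost it too (adjusted p = 0.0635 to 0.104), as did limma on log2(RPKM + 0.5) (adjusted p = 0.0665). It was kept in DESeq2 (adjusted p = 0.0195) and with the replicate block (adjusted p = 0.0213). With miR-101a the change was -0.54 ± 0.44 (adjusted p = 0.482), and -0.55 ± 0.17 (adjusted p = 0.0225) without miR-29a replicate 3. The direct difference was -0.75 ± 0.45 (adjusted p = 0.290), and -0.39 ± 0.19 (adjusted p = 0.130) without it.

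Its paralog tfr1b (ENSDARG00000077372) had 36.5, 41.2, 39.9 and 38.8 CPM with miR-29a, 45.8, 47.1, 41.9 and 49.4 with miR-101a and 50.7, 47.5, 47.6 and 51.7 in control. Replicate 3 lay inside the miR-29a range here. With miR-29a tfr1b fell by 0.34 ± 0.07 (adjusted p = 0.00460), and by 0.35 ± 0.06 (adjusted p = 1.36e-04) without replicate 3, while miR-101a gave -0.10 ± 0.07 (adjusted p = 0.410) and -0.12 ± 0.06 (adjusted p = 0.0943). The miR-29a call was lost in limma on log2(RPKM + 0.5) (adjusted p = 0.0879). Between the microRNAs the log2 difference was -0.24 ± 0.07 (adjusted p = 0.0441), and -0.23 ± 0.06 (adjusted p = 0.00648) without replicate 3. That call was lost with the 8 libraries alone (adjusted p = 0.145), with gene length corrected (-0.16, adjusted p = 0.210) and without any 1 of 9 libraries, the others being miR-101a replicate 3 and miR-29a replicates 2 and 3 (adjusted p = 0.0624 to 0.134).

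Summed CPM of 13 erythroid genes, which hold neither receptor, was lower with either microRNA than in control, apart from miR-29a replicate 3: 2154 to 2593 with miR-29a (6821 in replicate 3), 2091 to 2226 with miR-101a and 4116 to 4619.8 in control. With miR-29a 2 of the 13 were called higher and 3 lower (17.1% and 11.9% of all genes), and with miR-101a 2 and 6 (11.7% and 6.97%). Their median log2 fold changes were 0.16 and -0.60. Without miR-29a replicate 3 these counts were 5 and 5 (median 0.04) and 2 and 9 (median -0.62), to be read against the shares of all genes given above for that set of libraries. The transcription factor gata1a lay at 9.02 to 14.3 CPM with miR-29a, 3.73 to 4.62 with miR-101a and 6.77 to 7.77 in control. The part of red cells in the tfr1a values was not tested.

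The transporter gene slc11a2 (ENSDARG00000024295), which encodes DMT1, rose with miR-29a. It had 41.4, 35.5, 65.5 and 36.5 CPM with miR-29a, 27.6, 26.3, 32.1 and 22.4 with miR-101a and 30.8, 30.2, 27.4 and 27.6 in control. All miR-29a libraries lay above all others, replicate 3 highest. The log2 fold change was 0.62 ± 0.18 (adjusted p = 0.0235), and 0.38 ± 0.10 (adjusted p = 0.00346) without replicate 3. The call was lost without control replicate 3 (adjusted p = 0.0636) or control replicate 4 (adjusted p = 0.0634). For miR-101a it was -0.10 ± 0.18 (adjusted p = 0.787), or -0.12 ± 0.09 (adjusted p = 0.308) without miR-29a replicate 3. Between the microRNAs the difference was 0.72 ± 0.18 (adjusted p = 0.0179), or 0.49 ± 0.10 (adjusted p = 6.17e-04) without replicate 3. That direct call was lost with the 8 libraries alone (adjusted p = 0.0755) and without miR-101a replicate 4 (adjusted p = 0.0587). In RefSeq slc11a2 overlaps npffl, and in these unstranded libraries reads of overlapping genes cannot be told apart.

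Ferroportin, slc40a1 (ENSDARG00000000241, named SLC40A1), the iron exporter, moved in opposite directions with the microRNAs. It had 48.8, 61.6, 49.6 and 54.3 CPM with miR-29a, 98.1, 94.5, 102 and 100.2 with miR-101a and 74.4, 78.4, 79.5 and 79.3 in control. The groups did not overlap: all miR-29a libraries were lowest and all miR-101a libraries highest. With miR-29a it fell by 0.54 ± 0.08 on the log2 scale (adjusted p = 3.77e-04), and with miR-101a it rose by 0.34 ± 0.08 (adjusted p = 0.0105). The direct difference was -0.88 ± 0.08 (adjusted p = 6.38e-05), a level 1.84-fold lower with miR-29a. Without replicate 3 the 3 values were -0.51 ± 0.06, 0.32 ± 0.06 and -0.83 ± 0.06, with adjusted p-values of 2.61e-06, 1.51e-04 and 2.79e-08. The miR-101a call was lost in limma on log2(RPKM + 0.5) (0.41, adjusted p = 0.0666). Summed CPM of 17 macrophage identifiers, a cell type known for ferroportin, was 94.1 to 106 with miR-29a (146 in replicate 3), 81.3 to 92.4 with miR-101a and 70.5 to 81.6 in control. That sum was higher with miR-29a than in control, while the median log2 fold change of the 11 tested was -0.36. Without replicate 3 the median was -0.69 over 12 tested (4 higher and 5 lower, against 25.8% and 26.8% of all genes). The part of macrophages in the slc40a1 result was not tested. In RefSeq slc40a1 overlaps another, unnamed locus, so its counts carry the same limit as those of slc11a2.

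**Figure D2:**
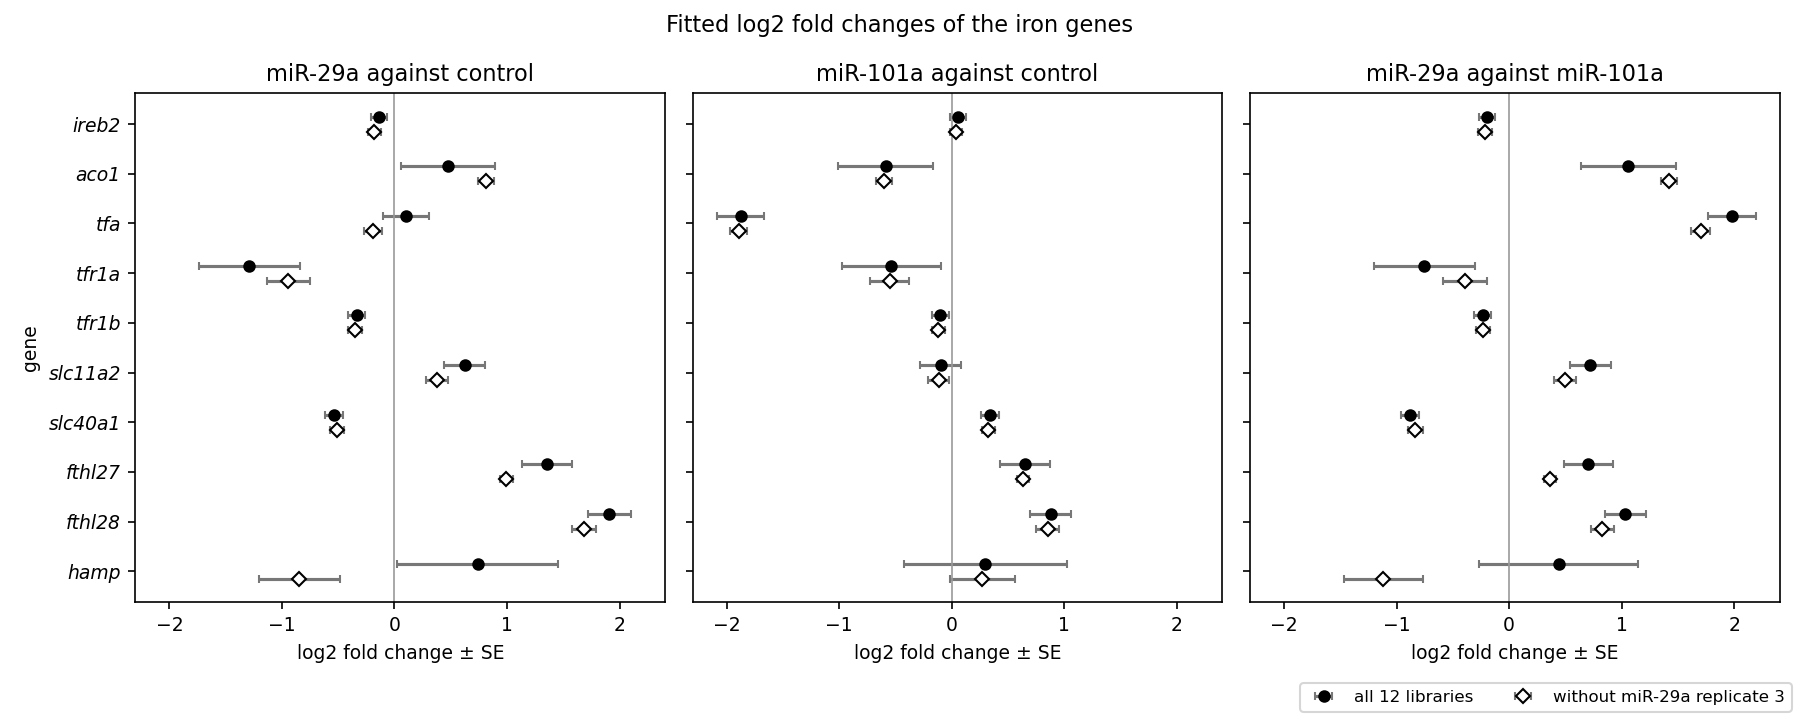
Log2 fold changes with standard errors (horizontal axes) of the 10 iron genes in the 3 comparisons, with all libraries and without miR-29a replicate 3. For slc40a1 the values are -0.54 with miR-29a and 0.34 with miR-101a, and the intervals of aco1, tfr1a and hamp are the wide ones when all libraries are used.

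Among the storage genes, fthl27 and fthl28, which encode ferritin heavy chain-like proteins, were higher with either microRNA, and more so with miR-29a. The values of fthl27 (ENSDARG00000031776) were 285, 253, 567 and 264 CPM with miR-29a, 218, 196, 224 and 202 with miR-101a and 134, 130.4, 135 and 135 in control. No library of either microRNA reached down to control, and every miR-29a library lay above every miR-101a library. The rise with miR-29a was 1.35 ± 0.22 on the log2 scale (adjusted p = 7.78e-04), or 2.56-fold, and 0.99 ± 0.05 (adjusted p = 9.70e-11), or 1.99-fold, without replicate 3. For miR-101a the change was 0.65 ± 0.22 (adjusted p = 0.0589), and 0.63 ± 0.05 (adjusted p = 1.90e-08) without miR-29a replicate 3. It was called under several other settings with all 12 libraries, among them median-ratio scaling (adjusted p = 0.0472) and DESeq2 (adjusted p = 0.0195). The direct difference of 0.70 ± 0.22 (adjusted p = 0.0447) was 0.36 ± 0.05 (adjusted p = 3.87e-05) without replicate 3, and its call was lost with the 8 libraries alone (adjusted p = 0.142) and without any 1 control or miR-101a library (adjusted p = 0.0649 to 0.107).

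The values of fthl28 (ENSDARG00000076221) were 16.6, 15.1, 27.5 and 17.4 CPM with miR-29a, 9.52, 10.9, 8.41 and 8.58 with miR-101a and 4.64, 4.78, 5.34 and 5.58 in control. The 3 groups did not overlap. With miR-29a fthl28 rose by 1.91 ± 0.19 (adjusted p = 2.21e-05), or 3.76-fold, and with miR-101a by 0.88 ± 0.18 (adjusted p = 0.00632), or 1.84-fold. The direct difference was 1.03 ± 0.18 (adjusted p = 0.00242). Without replicate 3 the 3 values were 1.68 ± 0.11, 0.85 ± 0.10 and 0.83 ± 0.10, with adjusted p-values of 4.40e-10, 2.43e-06 and 3.56e-06. In RefSeq fthl27, fthl28 and fthl30 lie side by side, and as close copies may share reads, so the split of counts between them is uncertain.

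Hepcidin, hamp (ENSDARG00000102175), was close to the limit of these libraries, with 8 to 76 counts. It had 0.421, 0.544, 3.93 and 0.268 CPM with miR-29a, 0.660, 0.991, 1.24 and 0.721 with miR-101a and 0.753, 0.642, 1.02 and 0.5002 in control. In each group replicate 3 was the highest, and in miR-29a it lay 9.56-fold above the mean of the other 3 libraries. The log2 fold change with miR-29a was 0.74 ± 0.72 (adjusted p = 0.491), and without replicate 3 it had the other sign, -0.85 ± 0.36 (adjusted p = 0.0558). For miR-101a it was 0.30 ± 0.73 (adjusted p = 0.846), and 0.27 ± 0.29 (adjusted p = 0.465) without miR-29a replicate 3. Between the microRNAs it was 0.44 ± 0.70 (adjusted p = 0.727), and -1.12 ± 0.35 (adjusted p = 0.0150) without replicate 3. Both comparisons that include miR-29a thus changed sign for hamp without that library.

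**Figure D3:**
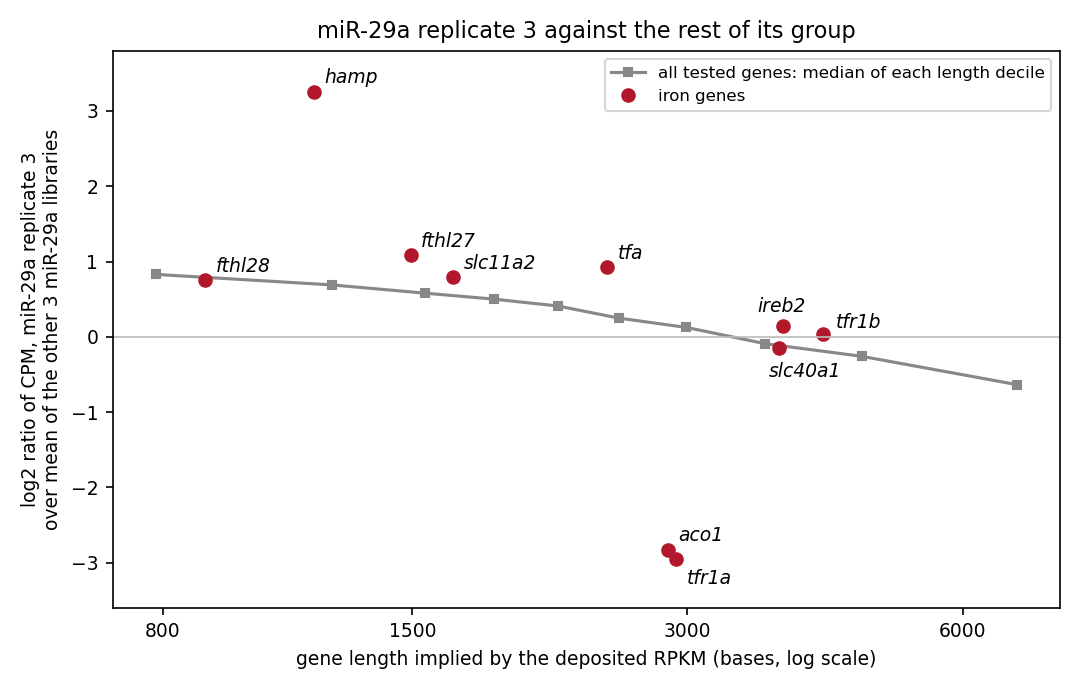
Log2 ratio of miR-29a replicate 3 to the mean of the other 3 miR-29a libraries (vertical axis) against gene length in bases (horizontal axis, log scale), as medians of 10 bins of the tested genes by length and as points for the 10 iron genes. The medians run from 0.83 for the shortest genes to -0.63 for the longest, while aco1 (-2.83) and tfr1a (-2.95) lie far below genes of their length and hamp far above.

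The distance of replicate 3 from the rest of its group was uneven among the iron genes. It was 7.71-fold below the other miR-29a libraries for tfr1a, with 3.35% of all tested genes lower still, and 7.09-fold below them for aco1, with 3.95% lower still. For ireb2, tfr1b and slc40a1 the ratio lay between 0.904 and 1.102, while tfa (1.89), slc11a2 (1.73), fthl27 (2.12) and fthl28 (1.68) were higher. A correction for gene length with all 12 libraries left the miR-29a changes of fthl27 at 1.15 and of slc11a2 at 0.45 on the log2 scale, both still called. That of tfr1a was -1.31 and also called (adjusted p = 0.0387), and that of aco1 was 0.45 and not called (adjusted p = 0.456).

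Further genes of iron metabolism were counted by list, to be read against the shares of all genes given above. Every gene named from these lists for a change against control kept its direction and its call without miR-29a replicate 3. With miR-29a 5 of 13 other uptake genes were higher and 1 lower (7 and 1 without replicate 3), and 0 and 1 with miR-101a (1 and 2). The median log2 fold changes of this list were 0.39 and 0.12 (0.44 and 0.10). STEAP4 and STEAP3, metalloreductases of the family that reduces iron for transport, rose with miR-29a by 1.83 ± 0.29 (adjusted p = 6.21e-04) and 0.83 ± 0.17 (adjusted p = 0.00330). The hemopexin gene hpxa, for a heme-binding plasma protein that is also in the liver list, fell to 0.408 ± 0.214 CPM with miR-29a, against 1.96 ± 0.310 CPM in control (log2 fold change -2.25 ± 0.35, adjusted p = 5.58e-04). With miR-101a hephl1a, a hephaestin-like ferroxidase, fell by 0.90 ± 0.28 (adjusted p = 0.0407).

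With miR-29a 2 of 8 other storage and iron chaperone genes were higher and 2 lower (2 and 4 without replicate 3), and 1 and 0 with miR-101a (3 and 3). Their medians were 0.17 and 0.03 (-0.07 and 0.01). The ferritin genes fthl31 (1.13 ± 0.25, adjusted p = 0.00526) and fthl30 (1.25 ± 0.34, adjusted p = 0.0164) rose with miR-29a. FTH1 (ENSDARG00000007975), a ferritin heavy chain gene listed as fth1b, rose with miR-101a (0.82 ± 0.17, adjusted p = 0.00650). With all libraries FTH1 was not called with miR-29a, and fth1a, another heavy chain gene of the list, was called with neither microRNA. The members that fell with miR-29a were PCBP4 (-0.62 ± 0.08, adjusted p = 9.33e-05) and pcbp3 (-1.60 ± 0.36, adjusted p = 0.00583), of the poly(C)-binding protein family, in which iron delivery to ferritin is best known for other members. Without replicate 3 the changes of fthl31 and fthl30 were smaller, at 0.72 and 0.78.

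In heme breakdown and export the gene HMOX1 went opposite ways with the microRNAs. With miR-29a 2 of its 7 genes were higher and 0 lower (4 and 0 without replicate 3), and 1 and 1 with miR-101a (2 and 3). The medians were 0.34 and -0.21 (0.34 and -0.22). HMOX1, heme oxygenase, which frees iron from heme, averaged 113 ± 26.2 CPM with miR-29a, 32.4 ± 3.32 with miR-101a and 51.2 ± 6.19 in control. It rose by 1.14 ± 0.16 with miR-29a (adjusted p = 2.70e-04) and fell by 0.66 ± 0.16 with miR-101a (adjusted p = 0.0127), a direct difference of 1.797 ± 0.16 (adjusted p = 6.43e-05). FLVCR2 (ENSDARG00000031506), of the heme transporter family, rose with both, by 0.79 ± 0.12 (adjusted p = 3.90e-04) with miR-29a and 0.62 ± 0.12 (adjusted p = 0.00352) with miR-101a. The other FLVCR2 identifier (ENSDARG00000038957) was called with neither when all libraries were used.

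**Figure D4:**
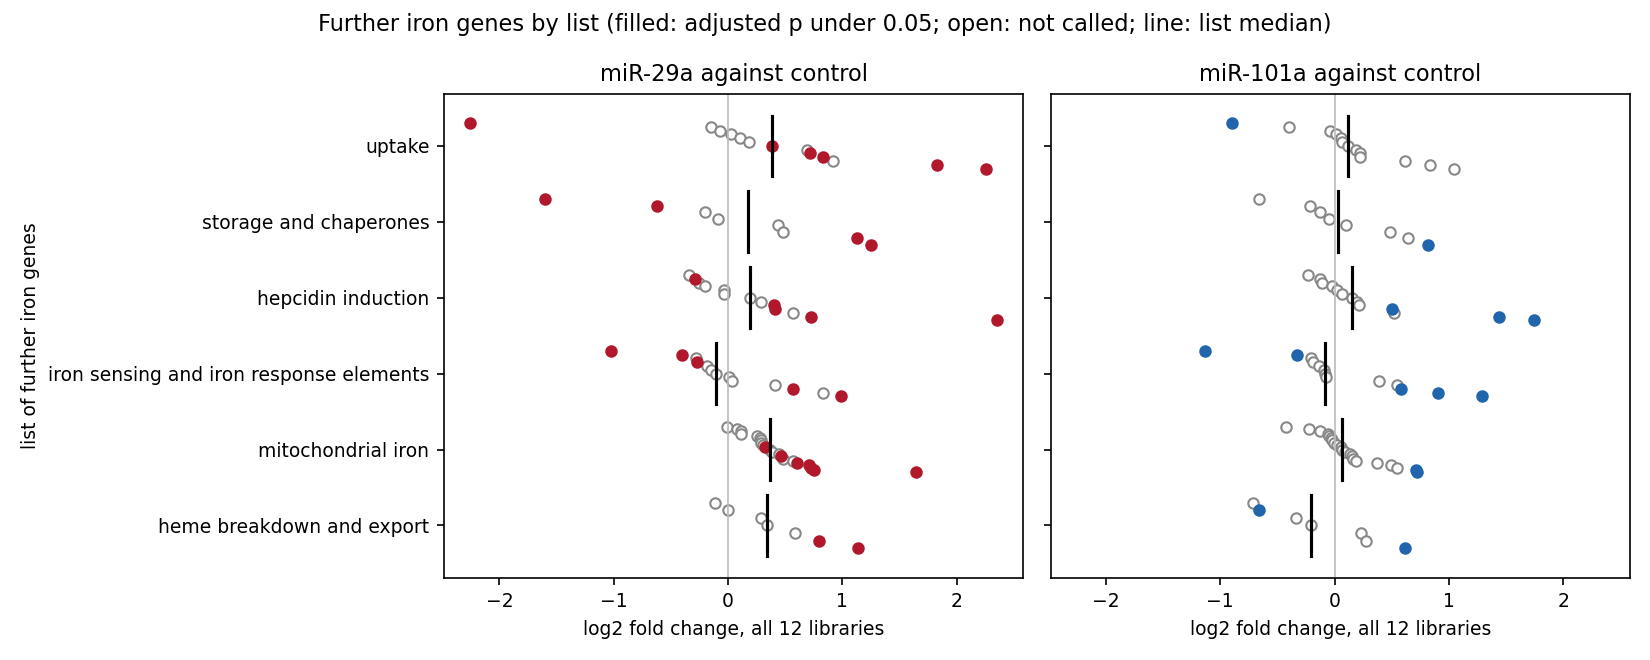
Log2 fold change over all 12 libraries (horizontal axes) of each gene in 6 further lists of iron genes (rows), for miR-29a against control (left) and miR-101a against control (right); filled points were called, open points were not, and black lines are list medians. In the mitochondrial list 7 points are filled with miR-29a and 2 with miR-101a, all right of 0, and its medians are 0.37 and 0.07. Among all genes tested 17.1% were called higher and 11.9% lower with miR-29a, and 11.7% and 6.97% with miR-101a.

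In mitochondrial iron use 7 of 21 genes were higher with miR-29a and 0 lower (12 and 1 without replicate 3), with a median of 0.37 (0.18). With miR-101a 2 were higher and 0 lower (5 and 0), with a median of 0.07 (0.05). Over all genes the shares were 17.1% and 11.9% with miR-29a (25.8% and 26.8%), and 11.7% and 6.97% with miR-101a (23.7% and 24.2%). ISCU (ENSDARG00000026582), the scaffold on which iron-sulfur clusters are built, rose with both, by 1.64 ± 0.21 (adjusted p = 1.27e-04) with miR-29a and 0.72 ± 0.20 (adjusted p = 0.0291) with miR-101a. The other ISCU identifier (ENSDARG00000035596) was not called with miR-101a when all libraries were used, and its miR-29a result is not given here. The transporter gene ABCB10 rose with miR-29a (0.46 ± 0.09, adjusted p = 0.00301) and ISCA1, of iron-sulfur cluster assembly, with miR-101a (0.71 ± 0.16, adjusted p = 0.00751).

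With miR-29a 2 of 13 genes of iron sensing or with known iron response elements were higher and 3 lower (4 and 4 without replicate 3). With miR-101a 3 were higher and 2 lower (5 and 4). The medians of this list were -0.11 and -0.08 (0.14 and -0.10). Shares over all genes were 17.1% and 11.9% with miR-29a (25.8% and 26.8%), and 11.7% and 6.97% with miR-101a (23.7% and 24.2%). The lower genes of the list included alas2, the erythroid enzyme that starts heme synthesis and whose message carries an iron response element in mammals. It averaged 138 ± 38.8 CPM with miR-29a, 128 ± 13.4 with miR-101a and 282 ± 13.0 in control. The log2 changes were -1.03 ± 0.16 (adjusted p = 5.43e-04) and -1.14 ± 0.16 (adjusted p = 5.29e-04). The erythroid list above also holds alas2, and its sums were low too, apart from miR-29a replicate 3. The median log2 fold change of that list, however, was 0.16 with miR-29a and -0.60 with miR-101a. CDC14A (ENSDARG00000057016) fell with miR-29a (-0.40 ± 0.10, adjusted p = 0.00815) and cdc14aa rose with miR-101a (0.90 ± 0.21, adjusted p = 0.0122), both for a phosphatase whose human message has an iron response element. Of the NRF2 genes in the list, nfe2l2b rose with both, by 0.99 ± 0.16 (adjusted p = 6.05e-04) with miR-29a and 1.29 ± 0.16 (adjusted p = 1.92e-04) with miR-101a. The other copy, nfe2l2a, was not called higher with miR-29a when all libraries were used, and its miR-101a result is not given here. BACH1, the heme-sensing repressor, rose with miR-29a (0.57 ± 0.18, adjusted p = 0.0353), and FBXL5, which marks IRP2 for degradation when iron is plentiful, fell by 0.33 ± 0.08 with miR-101a (adjusted p = 0.0121).

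Genes that act in the induction of hepcidin made up a list of 13 tested. Of these 4 were higher and 1 lower with miR-29a (5 and 3 without replicate 3), and 3 and 0 with miR-101a (6 and 3). Their medians were 0.19 and 0.15 (-0.01 and 0.14). Shares among all genes were 17.1% and 11.9% with miR-29a (25.8% and 26.8%), and 11.7% and 6.97% with miR-101a (23.7% and 24.2%). SOCS3 (ENSDARG00000026611), an inhibitor of cytokine signalling through STAT3, averaged 57.6 ± 5.10 CPM with miR-29a, 37.9 ± 2.05 with miR-101a and 11.3 ± 0.481 in control. It rose by 2.35 ± 0.08 with miR-29a (adjusted p = 3.32e-08) and 1.74 ± 0.08 with miR-101a (adjusted p = 2.93e-07). Results of the other SOCS3 identifier (ENSDARG00000025428) are not given here. SMAD1, which carries the bone morphogenetic protein signal, rose by 0.41 ± 0.07 (adjusted p = 7.76e-04) and 0.50 ± 0.07 (adjusted p = 3.80e-04), and NEO1 (ENSDARG00000102855), neogenin, a partner of hemojuvelin, fell by 0.29 ± 0.07 with miR-29a (adjusted p = 0.00801). The other NEO1 identifier (ENSDARG00000075100) was not called lower with miR-29a when all libraries were used.

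The genes whose log2 CPM followed ireb2, tfa and slc40a1 most closely over the 12 libraries were also listed, as a description of libraries that share groups and depth. These libraries include miR-29a replicate 3, and the ranking was not repeated without it. For ireb2 the genes were INSYN1 (Pearson r = 0.981), entpd5b (0.961) and luzp2 (0.949). For tfa they were cax1 (0.991), SORD (0.990) and afp4 (0.988), and for slc40a1 they were NTN1 (0.985), NEO1 (0.983) and FOXO4 (0.980).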

How the data were processed

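The authors deposited gene counts and RPKM values, 1 column per library. Per the submitters' processing notes the tools were bcl2fastq 1.8.4, STAR 2.4.1d and featureCounts 1.4.6-p4, with build GRCz10; libraries came from the unstranded TruSeq v2 kit, per the labels' protocols. The deposited RPKM values had been divided by library totals recycled down the genes: recycled totals recovered 7554 of 7554 genes with enough counts and own totals 0. These values served as an alternative and, with that division undone, as the source of gene lengths. RPKM in the text was recomputed from the counts with those lengths, which also set the length bins and length offsets.

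Counts were filtered with filterByExpr (minimum count 10), scaled by TMM and fitted over all 12 libraries with edgeR 4.0.16 (R 4.3.3, quasi-likelihood, robust). The fit was tested on simulated data with the same spread in every library and no length trend. That test therefore does not cover a library such as miR-29a replicate 3. Adjusted p-values are Benjamini-Hochberg values over all genes tested, 20872 with all libraries and 21085 without miR-29a replicate 3. The members, lists and tests were chosen with earlier results of these data known. From each further list the text names up to 2 called genes per direction and microRNA by smallest p, and for ireb2, tfa and slc40a1 the 3 genes most alike over the libraries. Of 146 list entries 111 matched by their own symbol, 14 by a synonym, 10 by a symbol shared between copies, and 11 are not analysed here; symbols, and neighbouring genes in RefSeq, came from reference tables. No pair of replicates agreed within sampling noise. Alternatives were other scalings, filters, DESeq2 1.42.0, limma 3.58.1 on log2(RPKM + 0.5) or log2(RPKM + 0.1), length offsets, a replicate block, fewer groups and each library left out.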

Additional observations from a re-analysis of the deposited data

Results flagged for a closer look

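In 5 of 30 groups of 4 libraries (10 genes in 3 groups) 1 library lay far from the other 3 by Dixon's test, where chance gives about 1 in 20 for a single group. The 10 genes share the same libraries, so these groups are not independent and the count is no test of an excess. In the miR-29a group the outlying library was replicate 3 each time, with 3.88 CPM for aco1, 1502 CPM for tfa, 567 CPM for fthl27 and 3.93 CPM for hamp. In control it was replicate 3 for tfr1a, with 26.8 CPM, against 37.4 to 38.9 CPM in the other control libraries.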

How the results depend on the processing

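Depth and spread limited hamp most, and miR-29a replicate 3 widened the spread of several iron genes. Without it the standard error for miR-29a against control went from 0.42 to 0.07 for aco1 and from 0.45 to 0.19 for tfr1a. It went from 0.72 to 0.36 for hamp, 0.22 to 0.05 for fthl27 and 0.20 to 0.08 for tfa, but only from 0.07 to 0.06 for tfr1b. Without that replicate the genes called numbered 11095 for miR-29a against control (6045 with it), 10088 for miR-101a against control (3905) and 9143 between the microRNAs (3730). With length offsets as well they numbered 11288, 10329 and 9246, with 10 and 6 iron genes called in the comparisons with control (6 and 3 with all libraries and no offsets). Fitting only 8 libraries gave 4322 genes and 5 iron genes for miR-29a against control, and 10055 and 6 for miR-101a. For the direct comparison that fit gave 1891 and 3. Limma on the deposited RPKM values gave 2847, 1335 and 1400 genes, with 3 iron genes for miR-29a and 3 in the direct comparison. Leaving out 1 library at a time gave 4703 to 11095, 2711 to 10088 and 2565 to 9143 genes, with 4 to 8, 3 to 6 and 3 to 9 iron genes; without miR-101a replicate 4 the direct comparison had 3.

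Directions turned for hamp between the microRNAs without replicate 3 (-1.12, or -1.09 with length offsets; the highest value with 1 library left out was 0.81), and for miR-29a against control for hamp (-0.85, or -0.88 with length offsets, adjusted p = 0.0456) and tfa (-0.19, or -0.21, adjusted p = 0.0428). Limma on deposited RPKM turned uncalled values of hamp (-0.05; -0.19 between the microRNAs), aco1 (-0.07) and, for miR-101a, ireb2 (-0.02), and on recomputed RPKM that of hamp between the microRNAs (-0.10 and -0.28). The cause was not tested. Every iron gene change called with all libraries kept its direction under every alternative run.

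Same-numbered samples did not all deviate together, so the numbers were not taken as pairs: the correlations ran from -0.207 to 0.406. The own number correlated best in 12 of 24 cases. Each case was a choice among 4 replicates, so this share is above 1 in 4 and a hint from the data of some sharing. Replicates 1 (0.036 to 0.242), 3 (0.153 to 0.353) and 4 (0.084 to 0.406) correlated positively between all groups, and replicate 2 did not (-0.207 to 0.130). The deviation of replicate 3 from its group mean also followed gene length (Spearman -0.396 with miR-29a, -0.158 with miR-101a, -0.078 in control). For replicate 4 these values were 0.369, 0.170 and -0.012, and for replicates 1 and 2 they ran from -0.028 to 0.274. The part of gene length in the sharing was not tested. The replicate block gave 5851, 3668 and 3495 genes and 6, 4 and 5 iron genes; fthl27 was then called for miR-101a (adjusted p = 0.0459) and tfr1b was lost in the direct comparison (adjusted p = 0.0695).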

Other observations

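Ratios of levels per length within a library set pairs of iron genes side by side. The ratio of ferritin fthl27 to receptor tfr1a was 33.3, 22.3, 465 and 31.8 in miR-29a replicates 1 to 4, 16.8, 16.3, 23.9 and 13.1 with miR-101a and 6.73, 6.81, 9.86 and 6.97 in control. The ratio of exporter slc40a1 to importer slc11a2 was 0.518, 0.762, 0.333 and 0.655 with miR-29a, 1.57, 1.58, 1.41 and 1.97 with miR-101a and 1.06, 1.14, 1.28 and 1.26 in control. The ratio of aco1 to ireb2 was 0.964, 0.830, 0.117 and 0.957 with miR-29a, 0.303, 0.283, 0.275 and 0.322 with miR-101a and 0.461, 0.499, 0.408 and 0.475 in control. In the first of these every library of either microRNA lay above control; in the second all miR-29a libraries lay below control and all miR-101a libraries above it. For aco1 over ireb2 replicate 3 lay on the other side of control from the rest of the miR-29a group. A ratio shows unequal change and does not show which gene moved.

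Marker sums of the remaining cell types overlapped between all groups for intestine and were low with miR-29a for skin, apart from replicate 3. The intestine list summed to 145 to 151 CPM with miR-29a (204 in replicate 3), 135 to 152 with miR-101a and 141 to 148 in control, and the skin and ionocyte list to 10817 to 11408 (18658 in replicate 3), 14839 to 17589 and 15183 to 16280 CPM in the same order. Sums can hide single genes: fabp2 of the intestine list had 11.5 to 75.6, 19.5 to 25.3 and 64.6 to 72.3 CPM in that order. Most of the skin sum was krt4, at 9129 to 16315 CPM with miR-29a over all its libraries, 13138 to 15522 with miR-101a and 13457 to 14668 in control. Called higher and lower with miR-29a were 2 and 1 of 6 intestine genes, 2 and 0 of 7 skin and ionocyte genes and 3 and 1 of 11 macrophage genes. Among all genes 17.1% were called higher and 11.9% lower with miR-29a. With miR-101a the counts of these lists were 1 and 1, 3 and 0, and 1 and 0, against 11.7% and 6.97% of all genes. Without miR-29a replicate 3 the numbers were 2 and 3, 2 and 3, and 4 and 5 (of 12 macrophage genes) with miR-29a, against 25.8% of all genes higher and 26.8% lower. Those with miR-101a were then 2 and 2, 4 and 0, and 5 and 3, against 23.7% and 24.2%.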
